A study of Mus musculus with 816 samples.

Results

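PolyIC, a synthetic double-stranded RNA that mimics the genomes and replication products of RNA viruses, was given alone to 8 cultures of primary mouse microglia for 24 h. The labels of the cultures call the agent IC, at 0.2 ug/ul. The 8 cultures were chosen by these labels from 784 cultures of the study, and they were compared with the 40 cultures that received no stimulus for the same 24 h. Microglia, the resident macrophages of the brain, were bought as neonatal cells (Sciencell), grown in poly-lysine coated 96-well plates and stimulated 4 days after plating. Further groups of 24 h cultures served for comparison, namely interferon beta (IFNb, 0.0001 ug/ul, n = 10), the higher dose of the bacterial endotoxin LPS (LPS_hi, 0.0001 ug/ul, n = 18) and P3C, the TLR1/2 ligand Pam3Cys-Ser-(Lys)4 (0.001 ug/ul, n = 6). PolyIC was also applied for 72 h in 6 cultures, which were set against 25 untreated cultures of 72 h. Neither the strain nor the number of animals behind a cell lot is given in the sources used here, and the labels name no genetic change in any of these groups.

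Replicates were wells, so the p-values measure the spread between wells that could share a cell lot, a plate and a library pool. For comparisons at 24 h this spread was estimated jointly over 374 cultures of many agents in 1 fit. The standard errors are therefore not those of the compared groups alone. The polyIC cultures came from 2 plates. Replicates 1 to 5 were grown on a plate of the Feb15 cell lot, all in the bottom row, and replicates 6 to 8 on a plate of the March15 lot. On the Feb15 plate 8 of the 9 untreated wells lay away from the edge, so that polyIC and an edge position cannot be told apart within it. The 2 plates also held 9 and 4 of the untreated cultures, and the 40 untreated cultures came from 6 plates in all. Among these was a plate of a further cell lot, May16, with 8 untreated cultures and no polyIC culture of 24 h. The cDNAs of many wells were pooled before amplification, and the 8 polyIC cultures were split over 3 such pools (replicates 1 and 2, replicates 3 to 5, replicates 6 to 8). Depth, estimated from the step between low values, in units of 1e6 mapped reads, was 1.52 to 29.6 in the polyIC cultures and 1.09 to 14.99 in the untreated cultures. Replicate 7 was the shallowest polyIC culture, so its values for genes of a few CPM (reads per 1e6 mapped reads) rest on few reads.

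PolyIC replicate 5 stood apart from the other 7 polyIC cultures and is treated separately throughout. When replicate 5 was left out, 2236 genes differed between polyIC and P3C. Replicate 5, which had no part in choosing these genes, lay nearer to the P3C mean than to the mean of the other polyIC cultures for 77.2% of them. The other 7 cultures did choose them, so their own shares of 3.94 to 19.7% are low by that choice and are no yardstick. The resemblance of replicate 5 to P3C was known beforehand, and the share is given as a description. For example, Pim2, a survival kinase, was at 499.9 CPM in replicate 5, at 0 to 18.9 CPM in the other polyIC cultures and at 355 to 836 CPM in the P3C cultures. Conversely Ifit3, an interferon-induced antiviral gene, was at 93.9 CPM in replicate 5, 3530.1 to 11795 CPM in the other polyIC cultures and 16.97 to 111 CPM under P3C. Per the header of the deposited table, the well of replicate 5 lay beside the wells of the P3C cultures of the same plate. Its library was in the same pool as theirs, a pool that also held replicates 3 and 4. Whether well position or pool played a part was not tested. Counts of genes against other cultures of 24 h are therefore given with and without replicate 5. Differences of single genes include it unless stated otherwise.

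**Figure D1:**
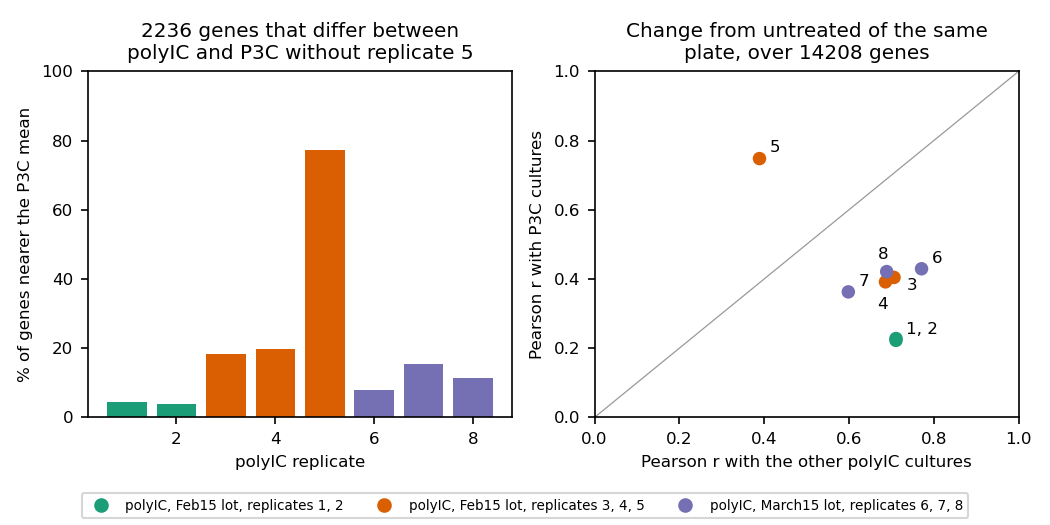
Left, share of the 2236 genes that differed between polyIC and P3C without replicate 5 for which each polyIC culture lay nearer the P3C mean (axis in percent), where the low bars of the 7 other cultures follow from the choice of genes. Right, Pearson r of each culture's change from the untreated cultures of its plate with the mean change of the other polyIC cultures (x axis) and of the P3C cultures (y axis), over 14208 genes, as a description. Colours mark library pools, and replicate 5, at r = 0.39 with polyIC and 0.75 with P3C, is the one polyIC culture above the diagonal.

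Double-stranded RNA is sensed in endosomes by TLR3, which signals through the adaptor TRIF (gene Ticam1), and in the cytoplasm by RIG-I (Ddx58) and MDA5 (Ifih1), which signal through MAVS. Both routes activate the kinase TBK1 and the transcription factors IRF3, IRF7 and NF-kB, and lead to the release of type I interferon. Interferon then acts through its receptor, STAT proteins and IRF9 to switch on a large set of antiviral genes, many of which carry interferon-stimulated response elements in their promoters.

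The identity of the cells was checked first. The 8 microglia and macrophage markers all passed the filter on low values, and their summed level was 16788 to 27256 CPM in the polyIC cultures and 15575 to 25349.6 CPM in the untreated cultures. Single markers did change, as 1 of the 8 was counted as higher and 2 as lower, with and without replicate 5. Their median log2 difference was -0.59 (-0.47 without replicate 5), against -0.20 over all genes tested. The markers of other brain and blood cells summed to less. The highest of these sums were those of endothelial cells, at 17.98 to 123 CPM in the polyIC cultures and 28 to 187 CPM in the untreated cultures, fibroblasts (6.65 to 120.4 and 0.65 to 392 CPM) and oligodendrocytes (28.7 to 55.4 and 24.9 to 87.1 CPM). Astrocyte and neuronal markers reached at most 9.25 and 5.54 CPM with polyIC. Of the markers of these other cells 1 was counted as changed, the oligodendrocyte marker Mag (1.14 ± 0.42 and 1.08 ± 0.45 without replicate 5), which passed the test with replicate 5 and not without it. Neutrophil markers summed to 47.4 CPM in replicate 5, at most 4.603 CPM in the 7 other polyIC cultures and at most 9.18 CPM in the untreated cultures. Bulk values cannot tell fewer cells of a kind from less RNA per cell.

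At 24 h, polyIC cultures carried 538 genes at a higher level than untreated cultures (3.79% of 14208 tested) and 1302 at a lower level (9.16%). A gene was counted where its mean differed by at least 1 on the log2(CPM + 1) scale and limma's adjusted p was under 0.05. Without replicate 5 the numbers were 575 (4.05%) and 1188 (8.36%), and 508 of the higher and 1088 of the lower genes were counted in both cases. The median of all genes tested was -0.20 on the log2 scale. After a shift of each culture to a common median, the counts became 877 higher and 629 lower and the median of all genes 0.14, so the balance of higher against lower genes rests on the scaling. Within the plate of the Feb15 lot alone 297 genes were higher and 501 lower, and within that of the March15 lot 424 and 1076, with fewer genes tested. In 38 genes the 8 polyIC cultures all lay above the highest of the 40 untreated cultures, and in 48 they all lay below the lowest. Without replicate 5 these were 205 and 55 genes.

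The 10 genes with the largest rises were Gm14446, C3, Slfn4, Cxcl11, Ifit3b, Cfb, Ccl5, Slfn1, Ifit3 and H2-M2. Complement C3, the central protein of the complement cascade, reached 259 to 470.5 CPM in the 7 other polyIC cultures and 193 CPM in replicate 5, against 0.184 to 41.8 CPM (median 5.84) in the untreated cultures. All 8 values were above the untreated range, and the log2 difference was 5.42 ± 0.43 (SE, adjusted p = 5.5e-28). H2-M2, a nonclassical MHC class I gene, was also outside the untreated range in all 8 cultures, at 206 to 469 CPM against at most 29.6 CPM (log2 difference 4.91 ± 0.55). Gm14446, a relative of Ifit1 that RefSeq names Ifit1bl1, was at 266 to 562 CPM in 7 cultures but at 7.502 CPM in replicate 5, inside the untreated range of 0 to 18.4 CPM. Its log2 difference was 5.77 ± 0.42 with replicate 5 and 6.44 ± 0.44 without it. The Schlafen genes Slfn1 and Slfn4, which restrain lymphoid and myeloid cell growth, rose by 5.15 and 5.33 on the log2 scale.

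Promoters of some of the largest rises are shown because many interferon-induced genes carry the response element there. Windows of 300 bases, from 250 before to 50 after the annotated start, were taken from RefSeq on the GRCm38.p6 build and printed on the strand of the gene. Capitals mark matches to the core of the interferon-stimulated response element, GAAA, any 2 bases, GAAA, on either strand.
Ifit3, chr19:34583279-34583578, plus strand: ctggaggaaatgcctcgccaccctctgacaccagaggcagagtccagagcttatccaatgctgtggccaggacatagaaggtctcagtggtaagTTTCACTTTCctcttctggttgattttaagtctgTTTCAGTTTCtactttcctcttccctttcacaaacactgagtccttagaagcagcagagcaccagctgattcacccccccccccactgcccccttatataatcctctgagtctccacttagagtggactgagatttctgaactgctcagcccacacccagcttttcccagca
Ifit3b, chr19:34607707-34608006, plus strand: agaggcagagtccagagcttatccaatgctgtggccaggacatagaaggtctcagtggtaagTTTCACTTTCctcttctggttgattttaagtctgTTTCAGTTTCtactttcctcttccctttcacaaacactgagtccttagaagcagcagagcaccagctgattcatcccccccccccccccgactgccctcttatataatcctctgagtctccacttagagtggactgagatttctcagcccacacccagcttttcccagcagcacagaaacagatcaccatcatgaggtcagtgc
Gm14446, chr19:34601919-34602218, minus strand: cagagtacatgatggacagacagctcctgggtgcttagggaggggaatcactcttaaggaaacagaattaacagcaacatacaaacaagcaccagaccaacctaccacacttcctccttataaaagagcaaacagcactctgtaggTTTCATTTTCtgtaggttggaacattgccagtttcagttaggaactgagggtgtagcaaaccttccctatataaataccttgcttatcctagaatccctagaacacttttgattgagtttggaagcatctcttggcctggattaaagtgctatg
C3, chr17:57228087-57228386, minus strand: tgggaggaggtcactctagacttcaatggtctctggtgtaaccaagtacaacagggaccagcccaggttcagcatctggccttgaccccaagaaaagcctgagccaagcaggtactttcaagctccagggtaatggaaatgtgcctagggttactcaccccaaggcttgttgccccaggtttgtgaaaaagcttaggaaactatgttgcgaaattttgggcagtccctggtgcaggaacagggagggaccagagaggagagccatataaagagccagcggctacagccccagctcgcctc
H2-M2, chr17:37483505-37483804, minus strand: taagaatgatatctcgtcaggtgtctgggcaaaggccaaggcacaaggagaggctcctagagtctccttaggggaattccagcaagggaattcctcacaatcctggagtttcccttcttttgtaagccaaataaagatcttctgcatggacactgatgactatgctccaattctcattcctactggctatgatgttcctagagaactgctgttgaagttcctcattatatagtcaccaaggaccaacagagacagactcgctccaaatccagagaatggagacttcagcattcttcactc
Ifit3 and Ifit3b each held 2 matches and Gm14446 held 1, whereas no match lay in the windows of C3 and H2-M2. Not printed are the windows of Slfn4 and Slfn1, which held 0 matches, and a further window of Gm14446, which held 1. A window was at hand for 7 of the 10 largest rises and 7 of the 10 largest falls, and 3 and 0 of these held the element. Among all 32851 windows 3.44% held it. By gene, it lay in 87 of the 400 higher genes with a window (21.8%), in 30 of 998 lower genes (3.01%) and in 410 of all 10120 tested genes with a window (4.05%). The gamma-activated sequence, another element of interferon-induced promoters, TTC, any 3 bases, GAA, lay in 8.30% of all windows. It was in 0 of the 7 largest rises with a window, but by gene in 55 of the 400 higher genes (13.75%), 74 of the 998 lower genes (7.41%) and 851 of all 10120 tested genes (8.41%). A match is a description of the letters and not of a bound site, and both elements were searched separately, so that matches could overlap.

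The antiviral effectors, proteins that degrade or trap viral RNA or block its translation and budding, rose as a group. All 27 members were counted as higher with replicate 5 and all 27 without it, with a median log2 difference of 3.91 and 4.45, against -0.20 over all genes tested. The mean level of the list on the log2(CPM + 1) scale was 8.18 to 8.68 in the 7 other polyIC cultures, 4.37 in replicate 5 and 3.11 to 5.68 in the untreated cultures. Replicate 5 was inside the untreated range for 26 of the 27 members, the exception being the oligoadenylate synthetase gene Oas1g, at 18.7 CPM in replicate 5 against at most 16.98 CPM without stimulus. Mx1, a GTPase that blocks influenza-like viruses, was at 407 to 834 CPM in 7 cultures, 21.9 CPM in replicate 5 and 2.20 to 69.1 CPM in untreated cultures (log2 difference 4.65 ± 0.38, 5.23 ± 0.39 without replicate 5). Isg15, a ubiquitin-like protein, differed between the pools, with 151 and 97.7 CPM in replicates 3 and 4, 457 and 435 CPM in replicates 1 and 2, and 944, 1032 and 805 CPM in replicates 6 to 8. Each of these was above the untreated maximum of 68.04 CPM, while replicate 5 was at 14.8 CPM. Rsad2 (viperin), another member of the list, was at 2012 to 2975 CPM against at most 338 CPM in untreated cultures, and at 51.8 CPM in replicate 5. Samhd1, which limits the dNTP pool, had the smallest standard error of the list, with a log2 difference of 2.22 ± 0.14 (adjusted p = 4.7e-41). Ifit3 and Ifit3b, and the Oas1 genes, are near-identical copies, so their reads may have been divided between them.

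Sensors of viral nucleic acid were themselves changed, in part. Of 20 sensors and adaptors, 9 rose and 2 fell, and 10 and 1 without replicate 5. The 2 that fell are near the share of lower genes over all genes tested (9.16%). Tlr3, the endosomal receptor, was at 5.26 to 88.3 CPM in 7 cultures, with the lowest value in the shallow replicate 7, and at 1.95 CPM in replicate 5, while untreated cultures had 0 to 27.7 CPM (log2 difference 1.68 ± 0.39, 2.13 ± 0.40 without replicate 5). Ddx58 reached 367 to 1096 CPM and Ifih1 157 to 320.2 CPM in those cultures, above the untreated maxima of 169.7 and 68.9 CPM. Their log2 differences were 2.37 ± 0.24 and 2.92 ± 0.26, or 2.97 ± 0.24 and 3.29 ± 0.27 without replicate 5. Zbp1, a sensor of left-handed nucleic acid that can trigger cell death, rose by 3.74 ± 0.34 (4.30 ± 0.35 without replicate 5) and the transcription factor gene Irf7 by 4.74 ± 0.47 (5.27 ± 0.49).
Most adaptors and the central kinase did not pass the test, although the kinase gene Ikbke and the RIG-I ubiquitin ligase gene Trim25 rose by 1.43 and 1.37 on the log2 scale. Ticam1 was at 6.99 to 21.9 CPM with polyIC and 2.08 to 24.97 CPM without (log2 difference 0.24 ± 0.31), and the differences of Mavs, Tbk1 and Irf3 were -0.57 ± 0.26, 0.13 ± 0.18 and -0.11 ± 0.21. Unc93b1, which carries endosomal Toll-like receptors to their compartment, was above the untreated range in all 8 cultures (948 to 1483 CPM against 373 to 834 CPM), at a log2 difference of 0.93 ± 0.13, just under the limit of 1. Tmem173, the DNA-sensing adaptor STING, fell by 1.11 on the log2 scale with replicate 5 (adjusted p = 0.0015) and was at -0.92 ± 0.31 without it. With the plate as a term in the fit, however, 0 of the 20 genes were counted as lower.

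Transcripts of the interferons were scarce at 24 h. Ifnb1 was listed at 0 in 4 of the 8 polyIC cultures and at most at 2.91 CPM, while the highest untreated culture had 3.09 CPM. Ifna4, Ifna5 and Ifng were listed at 0 in every polyIC and untreated culture. Some of the downstream signal carriers were higher. Of the 23 interferons, receptors and JAK-STAT genes, 18 passed the filter on low values, and 5 of these rose, both with and without replicate 5. Stat2 was at 767 to 1327 CPM in 7 polyIC cultures, 54.7 CPM in replicate 5 and 19.4 to 269 CPM without stimulus (log2 difference 3.11 ± 0.31, 3.64 ± 0.31 without replicate 5). Irf1 rose by 1.61 ± 0.31 (2.17 ± 0.32) and the feedback inhibitor Socs1 by 2.14 ± 0.36 (2.09 ± 0.38). The receptor chains Ifnar1 and Ifnar2 differed by -0.32 ± 0.29 and -0.27 ± 0.16, and neither passed the test.

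**Figure D2:**
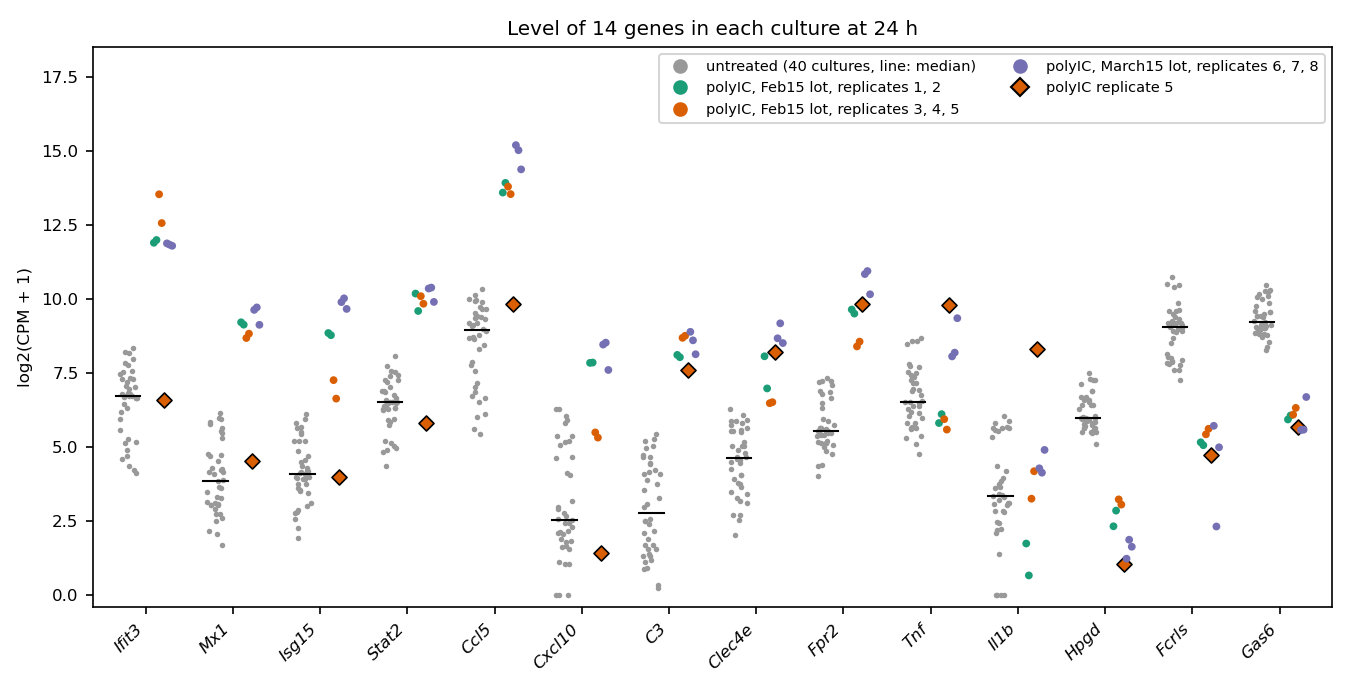
Level of 14 genes on the log2(CPM + 1) scale in each of the 40 untreated cultures (grey, line at the median) and each of the 8 polyIC cultures at 24 h, coloured by library pool, with replicate 5 as a diamond. For Ifit3, Mx1, Isg15 and Stat2 replicate 5 sits among the untreated cultures, whereas for C3, Clec4e and Fpr2 all 8 polyIC cultures sit above them and for Hpgd, Fcrls and Gas6 all 8 sit below.

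MHC class I genes, which present peptides of infected cells, and interferon-inducible GTPases were higher too. Of 18 genes of class I presentation, 17 rose with replicate 5 and 17 without it, the peptidase gene Erap1 being the exception in both cases (median 1.80 and 2.16). B2m, the light chain of class I, was at 2262 to 4344 CPM in 7 cultures and 885 to 2093 CPM in untreated cultures (log2 difference 1.09 ± 0.14). Tapbp (tapasin), which loads peptides, rose by 2.52 ± 0.20, and H2-Q7 was above the untreated range in all 8 cultures, with 247 CPM in replicate 5 against at most 240.1 CPM. The H2 genes are similar in sequence, so reads could be assigned to the wrong copy.
Class II presentation changed less. Of 8 class II genes 2 rose, H2-Aa (1.15 to 25.2 CPM, untreated at most 12.4) and Cd74 (0.531 to 8.55 CPM, untreated at most 3.26), both at low levels and both also without replicate 5 (1 with the cultures of each library pool averaged into 1 value). Neither passed the test when untreated cultures of the same plates alone were used. Of the 17 interferon-inducible GTPases, which attack the vacuoles of intracellular pathogens, 16 rose with replicate 5 and 17 without it (median 3.13 and 3.61). Gbp2 was at 461 to 1383 CPM in 7 cultures, 30.3 CPM in replicate 5 and at most 108 CPM without stimulus, and Igtp rose by 3.71 ± 0.27. Among the GTPase genes with a promoter window, 11 of 12 held the interferon-stimulated element, and among the antiviral effectors 10 of 20 did.

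Of 20 chemokine genes 18 passed the filter, and 8 rose with replicate 5 (without it Ccl12 joined these and Ccl6 fell). With the plate as a term 12 rose and 0 fell, also without replicate 5. The median log2 difference of the list was 0.72 without that term and 1.59 with it. Ccl5, which attracts T cells, was at 12273, 15409, 14121 and 11841 CPM in replicates 1 to 4, 902 CPM in replicate 5, and 37265, 33103 and 21130.1 CPM in replicates 6 to 8, while untreated cultures had 42.1 to 1279 CPM. The March15 cultures were the highest, and replicate 5 alone lay inside the untreated range. The 3 CXCR3 ligands Cxcl9, Cxcl10 and Cxcl11 rose by 4.01 ± 0.37, 3.49 ± 0.48 and 5.32 ± 0.40, and without replicate 5 by 4.57 ± 0.38, 4.23 ± 0.50 and 5.995 ± 0.41. Cxcl10 overlapped with the untreated cultures in replicates 3, 4 and 5 (43.7, 38.6 and 1.64 CPM, untreated at most 76.9). For replicates 3 and 4 the untreated wells that were higher all lay on another plate of the Feb15 lot. On the log2(CPM + 1) scale these replicates were at 5.48 and 5.31, and the highest untreated well of their own plate was at 2.90. Ccl9 and Cxcl16 were above every untreated culture in all 8 polyIC cultures, at 201 to 597 CPM against at most 97.3 CPM and at 399 to 792 CPM against at most 292 CPM.
The monocyte and neutrophil attractants Ccl2, Ccl3, Cxcl1 and Cxcl2 did not pass the test in the fit without a plate term. Cxcl2 was at 0.236 to 144 CPM in 7 polyIC cultures, 833 CPM in replicate 5 and 0 to 112 CPM in untreated cultures.

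Of 23 cytokine genes 20 passed the filter, and 6 rose and 2 fell, both with and without replicate 5. The 2 of 20 that fell are near the share of lower genes over all genes tested (9.16%), and with the pools averaged 3 rose and 1 fell (5 and 1 also without replicate 5). Il1b was at 0.574 to 28.7 CPM in 7 polyIC cultures, at 314 CPM in replicate 5 and at 0 to 65.3 CPM in untreated cultures, and its log2 difference was 0.48 ± 0.48 with replicate 5 and -0.15 ± 0.49 without. Tnf was at 54.7 to 67.6 CPM in replicates 1 and 2, 60.02 and 46.8 CPM in replicates 3 and 4, 888 CPM in replicate 5 and 264, 289 and 647 CPM in replicates 6 to 8, with 26.2 to 409.7 CPM in untreated cultures. The March15 cultures and replicate 5 were the higher ones. On the log2(CPM + 1) scale replicates 6 to 8 were at 8.05, 8.18 and 9.34, above the untreated wells of their plate at 7.16 to 7.78. Replicates 1 to 4, at 5.58 to 6.10, lay within the range of the untreated wells of theirs (5.30 to 6.94). Neither Tnf (0.69 ± 0.32) nor Il6 (0.37 ± 0.26) passed the test. The cytokines that rose were led by the antagonists Il1rn (2.76 ± 0.38), which blocks the interleukin 1 receptor, and Il18bp (2.69 ± 0.33), which binds interleukin 18, followed by the death ligand Tnfsf10 (2.12 ± 0.31). Igf1, a growth factor of resting microglia, fell by 1.64 on the log2 scale, and the other gene that fell was Osm.
Of 17 NF-kB subunits and feedback genes 5 rose, and 4 without replicate 5 (10 after the shift to a common median, 3 with pools averaged and without replicate 5). The inhibitor gene Nfkbia was at 131 to 219 CPM in 7 cultures and 953 CPM in replicate 5, against 53.00 to 198 CPM without stimulus, and did not pass (0.94 ± 0.19). Nfkb2 rose by 1.26 ± 0.26 and Traf1 by 2.29 ± 0.37.

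Some genes of surface receptors were high in replicate 5 as in the other cultures. Replicate 5 resembled P3C, and P3C itself raised 9 genes of the list below and lowered 2 against the same untreated cultures. Over all genes P3C raised 4.05% and lowered 23.7%. The list's median log2 difference was 1.47 with P3C and 0.58 with polyIC, so high values in replicate 5 do not tell the 2 agents apart. Of 18 surface pattern receptors and lectins 17 passed the filter, of which 4 rose and 2 fell with polyIC (4 and 1 without replicate 5, 8 and 0 after the shift). The 2 that fell are near the share of lower genes over all genes tested (9.16%). Fpr2, a receptor of formylated peptides and amyloid, was at 334 to 1955 CPM in the 8 polyIC cultures and 15.04 to 159.6 CPM in untreated cultures, and the log2 difference was 4.00 ± 0.28 (adjusted p = 7.2e-33). Clec4e (Mincle), which recognises glycolipids and dying cells, did not overlap either (87.7 to 574 CPM against at most 75.8). Marco and Fpr1 rose as well, but their highest values were in replicate 5, at 1789.6 CPM for Marco against 45.6 to 271 CPM in the other polyIC cultures.
Of 12 complement genes 3 rose (C3, Cfb and C2) and 3 fell (2 without replicate 5, when C1qc no longer passed). With the plate as a term 1 fell. Cfb, factor B of the alternative pathway, was at 335 to 933 CPM in 7 cultures and 55.5 CPM in replicate 5, with at most 61.8 CPM in untreated cultures. Of 18 genes of programmed cell death 6 rose and 0 fell, with and without replicate 5, among them the necroptosis effector Mlkl (3.23 ± 0.34, 3.55 ± 0.35 without replicate 5) and the pyroptosis effector Gsdmd (1.27 ± 0.21, 1.56 ± 0.22). Of 13 genes of inflammatory metabolism 12 passed the filter, and 6 rose (5 without replicate 5). Irg1, which makes itaconate, rose by 3.61 ± 0.38 and Ptges, the prostaglandin E synthase, by 3.17 ± 0.35, while Nos2, the inducible nitric oxide synthase, was at 0.531 to 34.2 CPM and did not pass (0.92 ± 0.44) but did so without replicate 5 (1.27 ± 0.46).

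**Figure D3:**
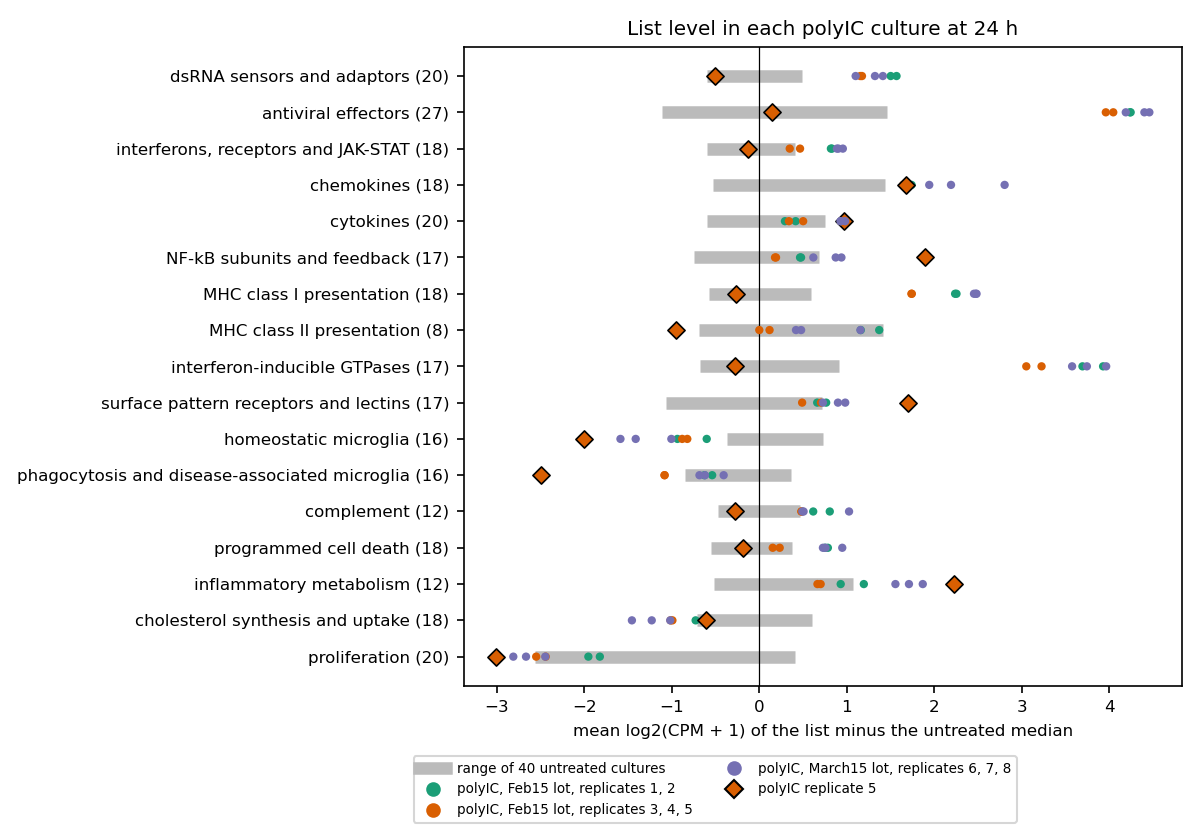
Mean log2(CPM + 1) of the members of each gene list in each polyIC culture minus the median of the untreated cultures (x axis), with the range of the 40 untreated cultures as a grey bar. The number of members used is in brackets. Replicate 5 (diamond) lies inside the untreated range for the antiviral, GTPase and MHC class I lists and is the highest polyIC culture for the NF-kB, surface receptor and metabolism lists.

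Lists of the resting microglia programme, phagocytosis, sterol synthesis and the cell cycle held more lower than higher genes, against a background of 9.16% lower genes. Because the level of all genes was shifted by -0.20, these counts are also given after the shift to a common median. Of 16 homeostatic genes 8 fell and 0 rose (7 and 1 after the shift, 8 and 0 without replicate 5, 5 and 0 with pools averaged). Fcrls, a microglial Fc receptor-like protein, was at 3.95 to 51.2 CPM in the 8 polyIC cultures and at 153 to 1692 CPM in untreated cultures, a log2 difference of -4.03 ± 0.43. The groups did not overlap. Cx3cr1, the fractalkine receptor, fell to a median of 95.3 CPM from 379.9 CPM. P2ry12 and Tmem119, used as microglia markers in the brain, were low in culture, at medians of 3.49 and 14.6 CPM without stimulus and 1.34 and 4.31 CPM with polyIC. Tmem119 passed the test (-1.76 ± 0.45) and P2ry12 did not (-0.89 ± 0.39).
Of 16 genes of phagocytosis and disease-associated microglia 7 fell and 2 rose (5 and 2 without replicate 5, 4 and 2 after the shift, 5 and 1 with pools averaged, 2 and 1 with pools averaged and without replicate 5). Gas6, a bridge between dying cells and the receptor Axl, was below the untreated range in all 8 cultures, at 46.4 to 102 CPM against 306 to 1419.5 CPM (log2 difference -3.37 ± 0.22), whereas Axl rose by 1.00 ± 0.34. Cst7, an inhibitor of lysosomal proteases, rose to 12.8 to 56.9 CPM in 7 cultures and was at 0.531 CPM in replicate 5. Trem2, the lipid receptor of this programme, was at 353 to 599.6 CPM in 7 cultures, 107 CPM in replicate 5 and 585 to 1274 CPM without stimulus. Its log2 difference of -1.11 ± 0.15 became -0.85 ± 0.15 without replicate 5, no longer past the limit of 1.

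Of 18 genes of cholesterol synthesis and uptake 9 fell and 0 rose (6 after the shift, 9 without replicate 5). Fdft1, the squalene synthase, was at 11.9 to 32.1 CPM in the 8 polyIC cultures and 34.1 to 215 CPM in untreated cultures, with no overlap. The regulator gene Srebf2 fell by 1.05 on the log2 scale. Of 20 proliferation genes 18 fell (17 without replicate 5, 15 after the shift) and 0 rose. Top2a, the topoisomerase of dividing cells, was at 17.7 to 49.2 CPM with polyIC and 7.31 to 822 CPM (median 344) without, so that single untreated cultures were as low as the polyIC cultures. The cyclin gene Ccnb2 likewise overlapped, at 1.40 to 8.55 CPM against 1.38 to 181 CPM.

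The other large falls are named by size alone. Cd28, a costimulatory receptor best known from T cells, fell by 4.10 on the log2 scale to 0 to 5.10 CPM, from a median of 38.01 CPM. The T cell markers as a whole summed to at most 5.67 CPM in polyIC cultures and 13.6 CPM in untreated cultures. Hpgd, which inactivates prostaglandin E, was at 1.06 to 8.33 CPM in polyIC cultures and at least 33.4 CPM in untreated cultures. Rnase4 was at 3.29 to 18.6 CPM against 84.4 to 284 CPM, and the mannose receptor gene Mrc1 at 1.24 to 11.1 CPM against 10.6 to 179 CPM. For Hpgd and Rnase4 the groups did not overlap, and for Mrc1 only replicate 2 overlapped. The remaining genes of the 10 largest falls were Fcrls and Ccnb2, described above, the cell division genes Stmn1, Prc1 and Pbk, and Rgs7bp, with log2 differences of -3.94 to -3.60. Naaa and Irak3 did not reach the limit of 1 (0.60 ± 0.40 and 0.78 ± 0.28), and Irak3, a brake on Toll-like receptor signalling, was at 10.2 to 24.6 CPM in 7 cultures and 160.3 CPM in replicate 5.

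The comparison with IFNb addressed how much of the polyIC response lay beyond that of type I interferon. On the Feb15 plate the 3 IFNb wells lay away from the edge, unlike the polyIC wells. A further 3 of the 10 IFNb cultures lay on a plate without polyIC cultures. PolyIC cultures had 137 genes higher (0.964%) and 203 lower (1.43%) than IFNb cultures, and without replicate 5 these were 90 (0.634%) and 55 (0.387%). After the shift to a common median 211 were higher and 92 lower. None of the 27 antiviral effectors passed the test in either direction, with or without replicate 5, and without it their log2 differences ranged from -0.69 to 0.80. A count of 0 among 27 is near the shares over all genes tested given above. Against the same untreated cultures, IFNb itself raised all 27 (IFNb against untreated, 611 genes or 4.30% higher and 797 or 5.61% lower).
Genes higher in polyIC than in IFNb cultures were found in other lists. Of the NF-kB list 7 were higher and 0 lower (5 and 0 without replicate 5), of the surface receptors 9 and 0 (7 and 0), and of inflammatory metabolism 5 and 0 in both cases. Susd2 was at 23.2 to 463 CPM with polyIC, 0 to 8.42 CPM with IFNb and 0 to 17.5 CPM without stimulus (polyIC minus IFNb 5.23 ± 0.55, adjusted p = 1.3e-15). H2-M2 reached 206 to 469 CPM with polyIC and 2.63 to 29.7 CPM with IFNb, Ptges 35.7 to 457 CPM and 0.471 to 19.5 CPM, and Clec4e 87.7 to 574 CPM and 4.38 to 31.3 CPM. The groups did not overlap for any of these 4 genes. The membrane protease gene Mmp14 also differed, by 3.97 ± 0.43.
Of the chemokines 5 were higher, among them Ccl5 (3.90 ± 0.58), and 3 were lower, with and without replicate 5.
Lower in polyIC were Ccl8, a monocyte chemokine (0 to 41.2 CPM against 56.5 to 201 CPM with IFNb), Mmp13, a collagenase (2.92 to 28.3 CPM against 40.2 to 241 CPM), and Ly6a (1.59 to 48.3 CPM against 76.3 to 341 CPM). These groups did not overlap. Srpk3 and Chn2 were lower as well, by 3.62 and 2.66 on the log2 scale.

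The comparison with LPS_hi set a ligand of TLR3 and the cytoplasmic sensors beside the ligand of TLR4, which uses the adaptor TRIF and in addition MyD88. PolyIC cultures had 457 genes higher (3.22%) and 530 lower (3.73%) than LPS_hi cultures, and 548 (3.86%) and 556 (3.91%) without replicate 5. Of the antiviral effectors only Isg15 differed, being lower by 1.55 on the log2 scale, and without replicate 5 only Ifi27l2a did, being higher by 1.53. A count of 1 among the 27 is near the shares over all genes tested. In contrast, 12 of 20 cytokines were lower and Igf1 higher, 11 of 18 chemokines lower and Cxcl13 higher, 13 of 17 NF-kB genes lower and 0 higher, and 10 of 12 metabolism genes lower and 0 higher. Without replicate 5 the lower genes of these lists numbered 12, 12, 13 and 11. Il1b was at 0.574 to 28.7 CPM in the 7 other polyIC cultures, 314 CPM in replicate 5 and 419 to 2819 CPM with LPS_hi (polyIC minus LPS_hi -5.88 ± 0.52, -6.51 ± 0.54 without replicate 5). Nos2 was at most at 34.2 CPM with polyIC and at 63.4 to 2055 CPM with LPS_hi, with no overlap. The acute-phase gene Saa3 and the cytokine feedback gene Socs3 were lower by 5.51 and 5.25 on the log2 scale.
Of 16 homeostatic genes 7 were higher in polyIC than in LPS_hi cultures and 0 lower, with and without replicate 5. Among them were Csf1r, the receptor that keeps microglia alive (1.22 ± 0.19), and Mertk, a receptor for dying cells (1.35 ± 0.29). Rgs2, a regulator of G protein signalling, was at 98.4 to 275 CPM in 7 polyIC cultures, 7.78 CPM in replicate 5, 5.41 to 53.3 CPM with LPS_hi and 79.9 to 385 CPM without stimulus. Rnf144b, Tgtp1, Ly6a and Ptchd1 were higher too, by 3.10, 3.05, 3.00 and 2.79 on the log2 scale. Tgtp1 is a near-identical copy of Tgtp2. LPS_hi itself changed 886 genes upward (6.24%) and 1850 downward (13%) against the untreated cultures, and only 3 of its 18 cultures lay on the polyIC plates.

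P3C activates TLR1/2, which does not use TRIF. PolyIC cultures had 1461 genes higher (10.3%) and 436 lower (3.07%) than P3C cultures, and 1700 (12%) and 536 (3.77%) without replicate 5. After the shift to a common median 1175 were higher and 630 lower. Of the 27 antiviral effectors 26 were higher in polyIC cultures, all but Oas1g (27 without replicate 5), of the 17 GTPases 16 (17), and of the 18 MHC class I genes 17 (17). Ifit3 was lowest at 3530.1 CPM in the 7 other polyIC cultures and highest at 111 CPM with P3C (polyIC minus P3C 5.79 ± 0.61, 6.499 ± 0.61 without replicate 5). Ms4a4c was at 169 to 454 CPM in those cultures and 0 to 10.8 CPM with P3C, with 8.84 CPM in replicate 5. On the lower side were 9 of 17 NF-kB genes (10 without replicate 5) and 8 of 20 cytokines, with 0 and 7 on the higher side, the cytokine counts being the same without replicate 5. Mmp9, a gelatinase, was at 0 to 7.40 CPM in the 7 other polyIC cultures, 188 CPM in replicate 5 and 64.5 to 202 CPM with P3C. Cxcl2, Saa3 and Il1b were lower by 5.50, 4.50 and 4.59 on the log2 scale, and without replicate 5 their differences were -6.20, -4.94 and -5.22. P3C against untreated counted 576 genes higher (4.05%) and 3363 lower (23.7%).

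**Figure D4:**
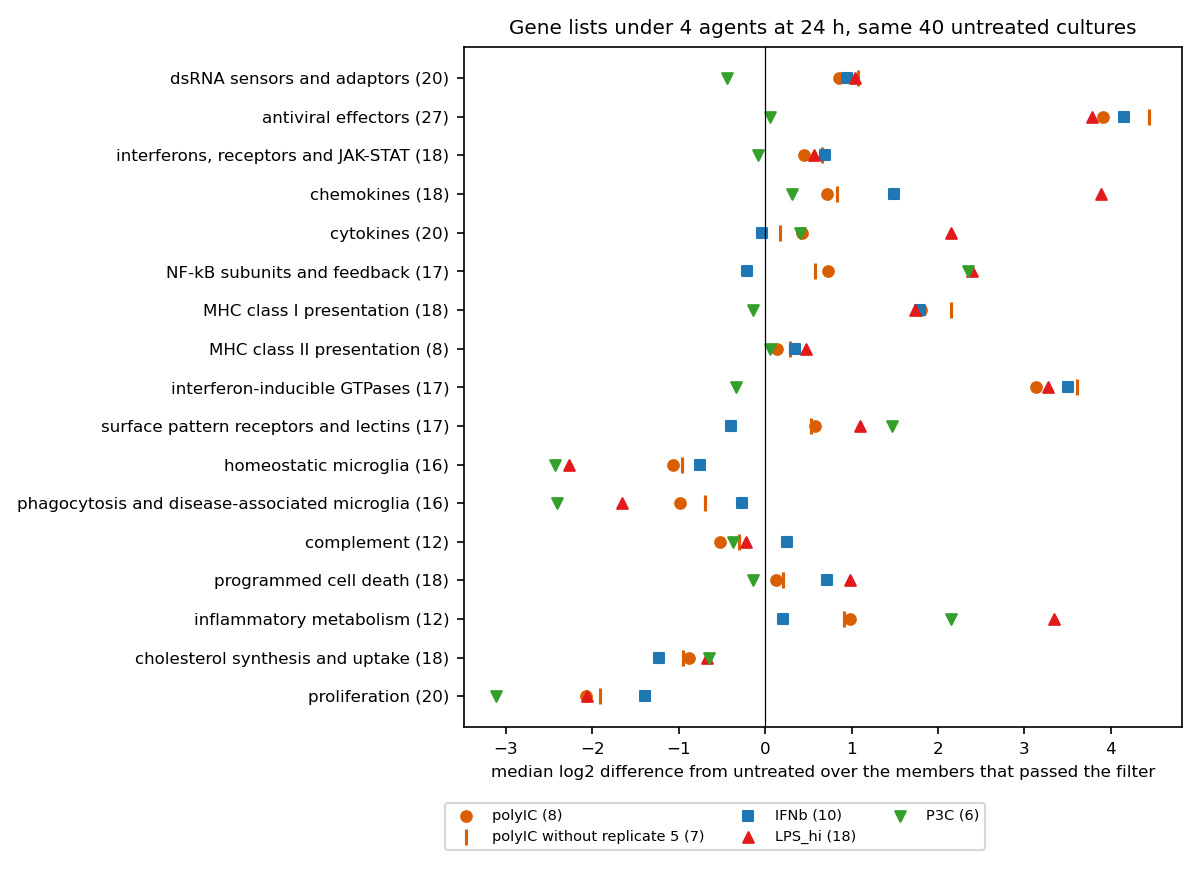
Median log2 difference from the same 40 untreated cultures (x axis) over the members of each list that passed the filter, for polyIC with and without replicate 5, IFNb, LPS_hi and P3C, with the number of cultures in the key and of members in brackets. PolyIC, IFNb and LPS_hi lie close together for the antiviral, MHC class I and GTPase lists, and polyIC lies between IFNb and LPS_hi for the NF-kB, metabolism and surface receptor lists.

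The 72 h cultures showed which changes were still present at that time. All of them were of the May16 lot, which held no polyIC culture of 24 h, so that time and lot cannot be told apart. At 24 h that lot held 8 of the 40 untreated cultures. PolyIC cultures of 72 h had 337 genes higher (2.72% of 12382) and 1095 lower (8.84%) than untreated cultures of 72 h, and the change at 72 h lay above that at 24 h for 282 genes (2.28%) and below it for 303 (2.45%). After the shift to a common median these were 246 and 448, and without 24 h replicate 5 they were 242 and 344. Without replicate 1 of the 72 h polyIC cultures they were 384 and 494. Of the antiviral effectors 23 of 27 were higher at 72 h, and 3 (Isg20, Ifi44 and Samhd1) had a smaller change than at 24 h. Counts by list between the times include 24 h replicate 5, which lay inside the untreated range for 26 of the 27 effectors. Its inclusion lowers the 24 h change of that list (median log2 difference 3.91 with it and 4.45 without). The mean level of that list was 3.75 to 7.16 (median 6.26) in the polyIC cultures and 2.02 to 6.09 (median 3.72) in the untreated cultures of 72 h, so the groups overlapped. Of the GTPases 9 were higher at 72 h and 8 had a smaller change. Chemokines had 1 gene higher at 72 h, Ccl5, at 365 to 17351 CPM against 12.7 to 753 CPM without stimulus (log2 difference 5.39 ± 0.66). Its change did not pass the test between the times (0.21 ± 0.87).
Cxcl11, by contrast, was listed at 0 in all 6 polyIC cultures of 72 h, and Cxcl10 was at 0 to 5.81 CPM. Clec4e was at 0.781 to 11.2 CPM with polyIC and 0.0797 to 32.6 CPM without stimulus at 72 h, and its change was 3.60 lower than at 24 h (adjusted p = 0.00048). C3 remained higher, at a median of 20.6 CPM against 0.996 CPM, by 2.56 ± 0.61. Among the falls, Hpgd was at 37.5 to 192 CPM at 72 h and Rnase4 at 7.03 to 92.6 CPM, and their changes lay 3.08 ± 0.52 and 2.81 ± 0.41 above those of 24 h. Mrc1 was still lower by 3.15 on the log2 scale at 72 h, with no difference between the times that passed the test (0.55 ± 0.78). Of the genes of phagocytosis and disease-associated microglia 8 of 16 had a higher change at 72 h than at 24 h, and 0 a lower one.

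**Figure D5:**
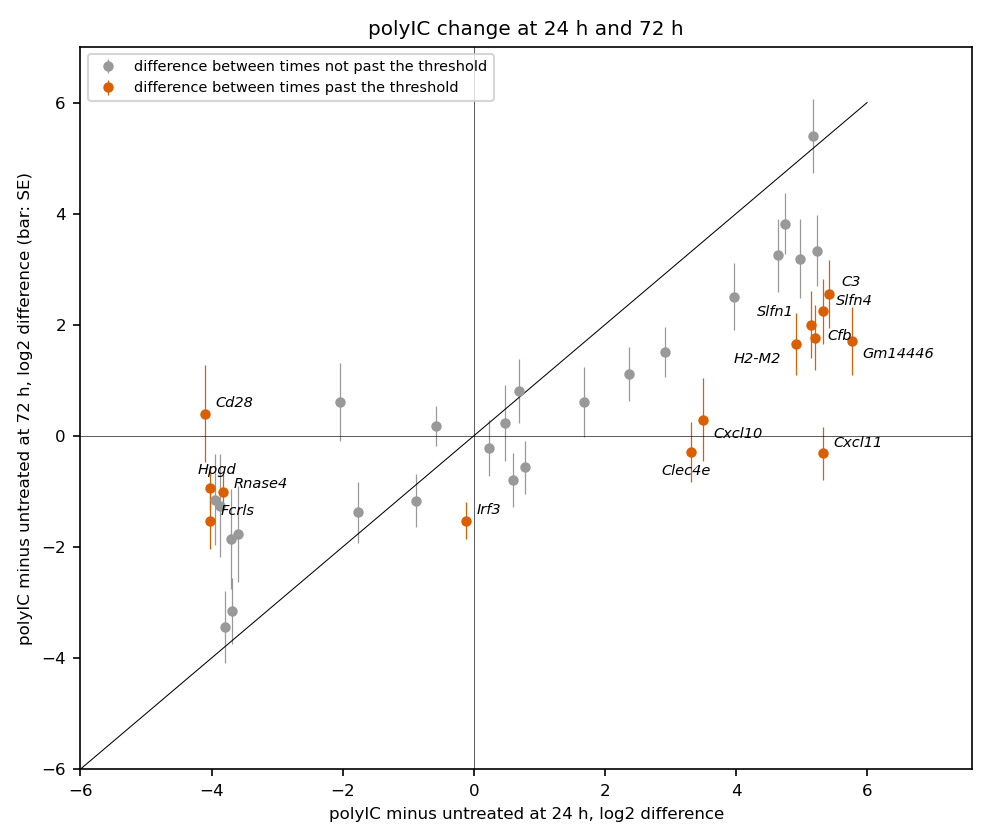
Log2 difference between polyIC and untreated cultures at 24 h (x axis) and at 72 h (y axis, bars are SE) for the named genes of largest change and of the sensing pathway. Genes whose change differed between the times are in orange with their symbol, and the diagonal marks equal change. The labelled rises, such as C3 and Clec4e, lie below the diagonal, and the labelled falls Hpgd, Rnase4, Fcrls and Cd28 lie above it.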

How the data were processed

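RNA of primary microglia cultures was measured by barcoded 3′ sequencing, in which cDNAs of 48 to 96 wells were pooled before amplification. Reads were quantified with Salmon 0.7.1 against Ensembl transcripts, and the authors deposited 1 table of CPM (45581 genes, 784 cultures), that is, reads summed per gene per 1e6 mapped reads with no correction for length. The labels list mm8 as genome build, and no coordinate was taken from it. Cultures with few reads or genes were left out by the authors. Whole reads could not be recovered from the values, so no count test was run, and depth was estimated from the step between low values.

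Groups came from the labels. Genes above 5 CPM in at least 4 cultures were tested with limma 3.58.1 (R 4.3.3) on log2(CPM + 1), with an intensity trend and Benjamini-Hochberg adjustment over all genes, in 1 fit of the 374 cultures of 24 h without combinations of LPS and another agent. The log2(CPM + 1) scale understates changes of low genes. The change at 72 h was compared with that at 24 h by an interaction term in a fit of these 4 groups. The step was tested on simulated data.

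Members and gene lists were chosen with earlier results of these data known. Genes were named by rule: the 10 largest rises and falls among genes counted with and without replicate 5, up to 3 changed members per list, fixed genes of the pathway, and the 5 largest differences in each direction from the other agents. Other genes named were chosen after their values were seen. Other pseudocounts, filters, scalings, covariates, tests and omissions of cultures were tried. Fits within a plate, with well position, with averaged pools, and with plate as a term without replicate 5 were added after seeing the data. Counts over 31 gene modules published with the study, which chose their members on its own cultures, were also computed and are not described. Results for some genes are not reported here. Promoter windows were RefSeq's, matched by symbol. Figures were drawn with matplotlib 3.10.9 (Python 3.11.15, pandas 2.3.3, numpy 2.4.6, scipy 1.17.1).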

Additional observations from a re-analysis of the deposited data

Results flagged for a closer look

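Of 76 named genes examined for a culture far from the others in the 8 polyIC cultures of 24 h, 35 had one. The measure was the gap of the outermost culture to its nearest neighbour over the range of the group on the log2(CPM + 1) scale, which had to pass 0.526 for 8 cultures. Chance marks about 1 in 20 independent groups of like cultures. The 8 cultures came from different lots and pools, and replicate 5 was known beforehand to stand apart. Most flags mark that 1 well, in genes partly named for their change in these cultures. They are therefore not independent, and that rate is no yardstick for their number. Replicate 5 was the lowest culture by this measure for 30 genes, namely Gm14446 (0.822), Slfn4 (0.772), Cxcl11 (0.795), Ifit3b (0.904), Cfb (0.635), Ccl5 (0.692), Slfn1 (0.894), Ifit3 (0.75), Irf7 (0.709), Zbp1 (0.806), Ifih1 (0.689), Oasl1 (0.788), Stat2 (0.827), Cxcl9 (0.643), Il1rn (0.604), Il18bp (0.785), Tnfsf10 (0.802), H2-Q7 (0.783), H2-T22 (0.772), H2-T23 (0.825), Tgtp2 (0.609), Tgtp1 (0.59), Iigp1 (0.712), Cst7 (0.606), Mlkl (0.654), Daxx (0.626), Casp4 (0.532), Ddx58 (0.711), Mx1 (0.801) and Cxcl10 (0.549). It was the highest for Fpr1 (0.576), Il6 (0.636) and Irak3 (0.69). Whether the content of that well differed from its label was not tested. Other cultures were singled out for Cd28, where replicate 2 was the highest (0.532), and for Fcrls, where the shallow replicate 7 was the lowest (0.707).

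The polyIC change differed between 72 h and 24 h, by limma's interaction test, for 14 named genes. The change at 72 h minus that at 24 h on the log2 scale was below 0 for Gm14446 (-4.07), C3 (-2.87), Slfn4 (-3.09), Cxcl11 (-5.64), Cfb (-3.44), Slfn1 (-3.15), H2-M2 (-3.26), Irf3 (-1.41), Cxcl10 (-3.20) and Clec4e (-3.60). It was above 0 for Cd28 (4.50), Fcrls (2.49), Hpgd (3.08) and Rnase4 (2.81). The fitted value of Cxcl11 depends on the pseudocount, since the gene was listed at 0 in all 6 polyIC cultures of 72 h. The 72 h cultures came from another cell lot than the 24 h polyIC cultures, so time and lot cannot be told apart.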

How the results depend on the processing

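The numbers of genes higher and lower than in untreated cultures were 538 and 1302. Higher genes numbered 877 after the shift to a common median and 297 within the Feb15 plate. Lower genes numbered 843 with the plate as a term (835 also without replicate 5), 865 with the library pool as a term, 676 with a pseudocount of 5, 629 after the shift, 501 within the Feb15 plate (424 without replicate 5), 632 with pools averaged (611 without replicate 5) and 2398 with no minimum change. Leaving out 1 polyIC culture at a time gave 524 to 575 higher and 1108 to 1414 lower genes. Well position as a term gave 524 and 1216.

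Against IFNb, higher genes numbered 137, but 90 without replicate 5, 84 with only the groups compared in the fit and 211 after the shift. Lower genes numbered 203, but 55 without replicate 5, 92 after the shift and 57 with the plate as a term and without replicate 5. Against LPS_hi, the 457 higher genes became 197 with a pseudocount of 5 and 888 with the plate as a term and without replicate 5, and the 530 lower genes became 328 with the plate as a term. Against P3C, fitting only the groups compared left 669 higher and 248 lower genes, and a pseudocount of 5 left 835 higher. For the change between times, leaving out 1 polyIC culture of 72 h at a time gave 259 to 384 higher and 208 to 494 lower genes, and leaving out 24 h replicate 5 gave 242 higher and 344 lower. The cause of these shifts was not tested.

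For named genes against untreated cultures, 2012 of the values under an alternative kept direction and side of the threshold, 27 lost the call, 8 gained it and 9 changed sign. None of those 9 had been past the threshold. They were Ticam1 (-0.29 within the March15 plate), Irf3 (0.22 after the shift), Tnf (-0.10 with array weights, -0.21 within the Feb15 plate without replicate 5), Il1b (-0.15 without replicate 5 and up to 0.95 without another culture, -0.80 with array weights, -0.24 with pools averaged and without replicate 5) and Il6 (-0.10 without replicate 5 and up to 0.54 without another culture, -0.052 with pools averaged and without replicate 5). The values against IFNb, LPS_hi and P3C kept theirs in 70 cases each. These were values of the 5 largest counted differences in each direction, so that keeping the call followed largely from their choice. For the change between times 388 kept theirs, 10 lost and 8 gained the call, and 12 changed sign. Leaving out 1 culture at a time, this value ranged from -0.33 to 0.99 for Ccl5, -0.14 to 0.65 for Rgs7bp, -0.28 to 1.07 for Mrc1, -1.27 to 0.065 for Ticam1, -0.24 to 0.48 for Tnf and -0.36 to 0.38 for Il1b. It was -0.037 for Tnf with a pseudocount of 5 and -0.52 for Tmem119 with the plate as a term. No paired analysis was possible because the labels carry no replicate number shared between groups. Plate and pool, which groups did share, were fitted as terms instead, with the values above. Depth limits genes of a few CPM in the shallow replicate 7.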
